A study of Mus musculus with 6 samples.

Results

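The tumour necrosis factor (TNF) and TNF receptor superfamilies were read from the deposited count table by gene symbol: every symbol made of Tnfsf or Tnfrsf and a number, with or without a closing letter, together with Tnf, Lta, Ltb, Ltbr, Fas, Fasl, Cd40, Cd70, Eda, Edar, Eda2r and Ngfr. This gave 43 of 55418 symbols, 17 for ligands and 26 for receptors. The cells are MOC2, a mouse head and neck squamous carcinoma line without papillomavirus, and the 6 libraries fall into a control group of 3 (genotype CRISPR Control) and a group of 3 labelled EphA4 Knockout. The knockout-labelled cells are those of the clone named H3, so differences between clones and differences between genotypes cannot be told apart. Cells of both groups were untreated, grew in serum with EGF, hydrocortisone and insulin, and were passaged 2 times after thawing, and the labels put all of them in batch 1. The question is which superfamily transcripts these carcinoma cells carry and which differ between the groups.

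Ligands of the superfamily are mostly membrane-bound or shed trimers that cluster their receptors. Receptors with a death domain recruit TRADD or FADD and can lead to caspase 8 and cell death or to NF-kB, while the others bind TRAF adaptors and feed NF-kB and MAP kinases. Decoy receptors bind ligand without signalling. In carcinomas the family is known for death receptors such as Fas, for inflammatory signalling through the TNF receptors, and for ligands and receptors of costimulation that are otherwise found mainly on leukocytes.

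Library totals ran from 35115926 to 41775031 counts, so that 1 count equals 0.0239 to 0.0285 CPM (counts per 1000000 counts) before scaling. CPM values of single genes are given after scaling. Epha4, the edited gene, had 1907, 2110 and 2250 counts in control against 3483, 3815 and 3606 under the knockout label (log2 fold change 0.86, SE 0.06, adjusted p = 2.1e-06 by edgeR), a rise and not a fall. Directions below are those of the libraries labelled knockout. Counts per gene do not show whether the edited sequence or the protein is present, so they could not be used to check the label. EphA4 knockout replicate 3 stands apart, with a chi-square per degree of freedom of 31.7 and 30.8 against the other libraries of its group, compared with 4.41 to 8.89 for the remaining pairs within groups. Nothing in the labels tells whether replicates are separate cultures, and the p-values cover the spread among these libraries alone, possibly a technical one. The 8 epithelial markers, 4 higher and 2 lower among the 6 tested, summed to 3860 to 3880 CPM in control and 3970 to 4050 CPM in knockout-labelled libraries, although the basal squamous markers Krt5 and Trp63 had at most 2 counts in any library. Of 14 leukocyte markers, 8 (Cd3e, Cd3g, Ms4a1, Adgre1, Itgam, Tyrobp, Nkg7 and Ncr1) had 0 counts in every library, and of the 3 tested Csf1r rose while Cd68 and Cd74 fell. The list summed to 24.4 to 28.5 CPM in control and 12.0 to 13.4 CPM in knockout-labelled libraries. The 8 fibroblast and pericyte markers summed to 48.6 to 52.2 CPM and to 1.91 to 2.03 CPM, with 6 of 6 tested members lower and Lum at 0 in all. Col1a2, which was not tested, went the other way, with 4, 0 and 1 counts in control against 8, 11 and 10 under the knockout label. The 5 endothelial markers summed to 1.34 to 1.63 CPM and to 0.592 to 1.24 CPM. The part of these markers in the results below was not tested, and in bulk RNA fewer cells of a type and less RNA per cell cannot be told apart.

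Superfamily transcripts differed between the groups in both directions, with members of higher level split between rises and falls and more falls than rises among those of lower level. A filter on low counts kept 23 members, 17 receptors and 6 ligands. Of these 6 rose, 13 fell and 4 did not pass an adjusted p of 0.05 in edgeR. Without EphA4 knockout replicate 3, and with the filter applied anew, 8 rose and 14 fell of 26 tested. The background is large: 71.5% of all 15199 tested genes passed, 32.7% as higher and 38.8% as lower, so the 82.6% of tested members that passed is read against that share. At a log2 fold change of at least 1 in size, 2 members rose and 10 fell, against 10.3% and 20.1% of all tested genes. Control and knockout-labelled values were fully separate for 20 of the 23 (87%, against 76.1% of all tested genes). The median log2 fold change of the tested members was -0.89, against -0.04 over all tested genes. These counts lean on the low members, which could pass the filter through their control level alone. Of the 10 members with a mean of at least 5 CPM over the 6 libraries, 5 rose, 4 fell and 1 did not pass (of all genes at that level 39.9% rose, 40.4% fell and 80.3% did either), with a median of 0.23. Of the 13 below that level, 1 rose, 9 fell and 3 did not pass (of all tested genes below it 17.2% rose, 35.6% fell and 52.8% did either).

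**Figure D1:**
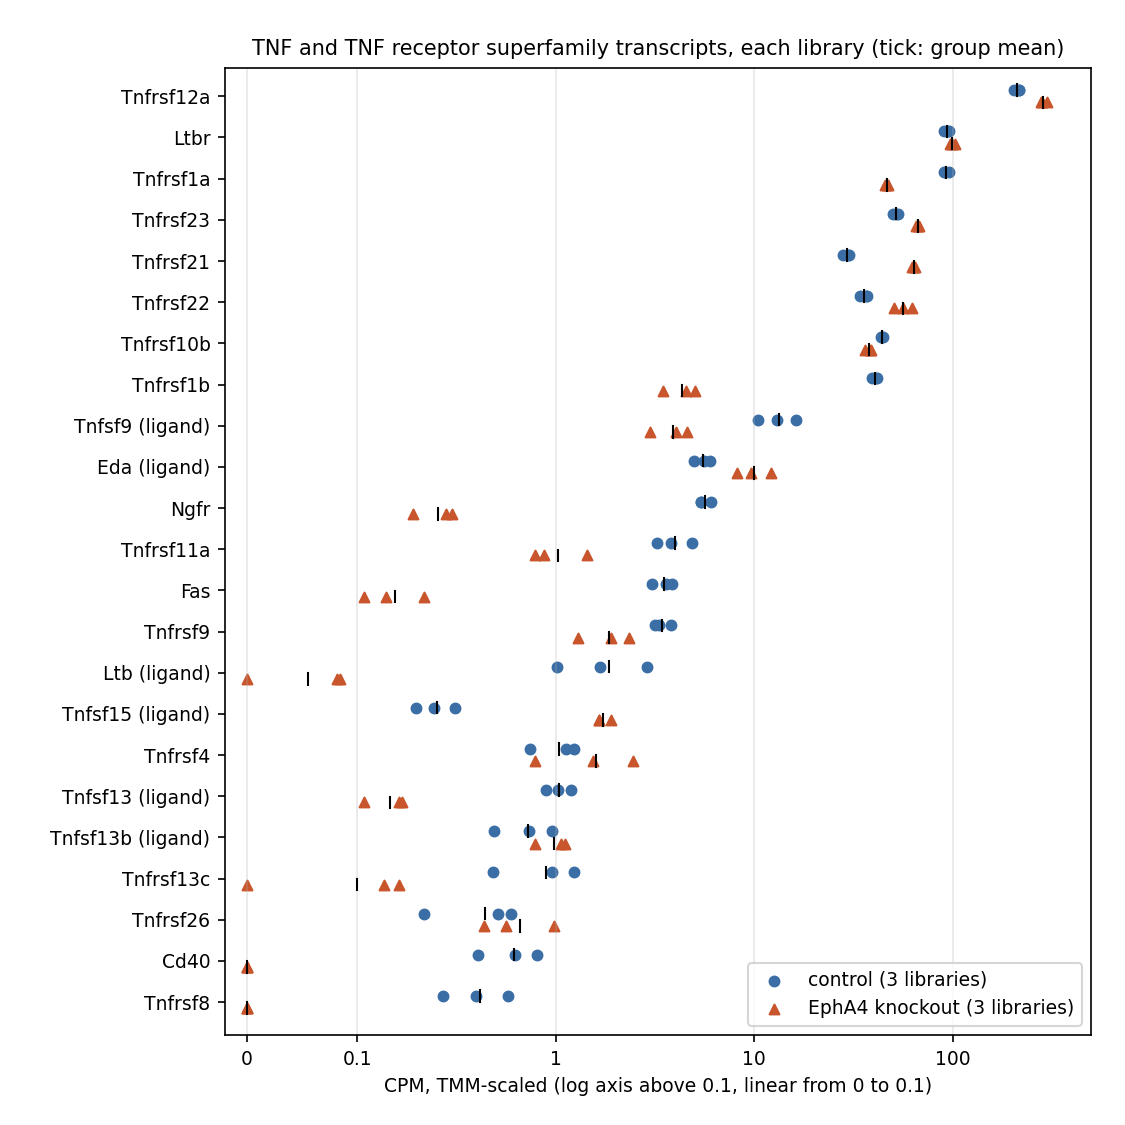
Level of each tested superfamily member in every library, in TMM-scaled CPM on an axis that is logarithmic above 0.1 and linear below it. Circles are the 3 control and triangles the 3 knockout-labelled libraries, ticks are group means, and the groups overlap for 3 of the 23 members, Tnfrsf4, Tnfrsf26 and Tnfsf13b.

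Levels of different genes were compared per kilobase of annotated exon. In the control libraries Tnfrsf12a led the receptors with a mean of 110 CPM per kilobase, followed by Ltbr (39.8), Tnfrsf1a (35.8), Tnfrsf23 (13.0), Tnfrsf1b (10.7), Tnfrsf22 (8.52), Tnfrsf10b (8.06) and Tnfrsf21 (7.15). Among these 8, the ranges of neighbours in the order overlapped only for Tnfrsf22 and Tnfrsf10b. In the knockout-labelled libraries Tnfrsf12a (148), Ltbr (42.4), Tnfrsf1a (18) and Tnfrsf23 (16.8) kept the first 4 places, Tnfrsf21 (15.5) came next, and Tnfrsf1b had dropped to 1.14 CPM per kilobase, within the range of Tnfrsf4. Among the ligands Tnfsf9 led in both groups, at 10.3 and 3.00 CPM per kilobase. The ligand next below it was Ltb in control (1.23), whose range overlapped that of Eda (0.809), and Eda in the knockout-labelled libraries (1.47).

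The receptors of TNF itself were lower, and by unequal amounts. Tnfrsf1a encodes the widely expressed death-domain receptor of TNF, and had 95.6, 91.9 and 90.4 CPM in control against 45.7, 46.6 and 47.5 CPM under the knockout label. All 3 control values lie above all 3 knockout-labelled values, and Tnfrsf1a fell by 0.99 on the log2 scale (SE 0.04, adjusted p = 1.27e-07, edgeR). Tnfrsf1b encodes the TRAF-binding receptor that lacks a death domain, and had 41.0, 41.7 and 39.4 CPM in control against 5.03, 4.53 and 3.48 CPM under the knockout label. Its groups are further apart, and it fell by 3.23 on the log2 scale (SE 0.13, adjusted p = 7.12e-08). Within a library, where scaling plays no part, the ratio of Tnfrsf1a to Tnfrsf1b counts was 2.33, 2.20 and 2.29 in control against 9.08, 10.3 and 13.6 under the knockout label. Per kilobase the ratio was 3.25 to 3.44 in control against 13.4 to 20.1 under the knockout label.

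Transcripts of their ligands were near zero in both groups. Tnf had 14, 7 and 7 counts in control against 3, 0 and 0 counts under the knockout label, a ratio of 9.02 by library totals with a 95% counting interval of 2.79 to 46.4. Lta, which encodes lymphotoxin alpha, had 0, 2 and 3 counts in control against 4, 0 and 2 under the knockout label. Both stayed below the filter, and without a filter neither passed (adjusted p = 0.096 for Tnf and 0.92 for Lta in edgeR). The promoter of Tnfrsf1b is shown because this gene had the largest change among the receptors with a mean of at least 5 CPM over the 6 libraries. The sequence is the 250 bases before the transcription start in RefSeq's annotation of GRCm38.p6 (chr4:145246871-145247120, minus strand, 5′ to 3′ along the gene), and capitals mark a match on the other strand to the core repeat of interferon response elements (GAAA, any 2 bases, GAAA).
Tnfrsf1b: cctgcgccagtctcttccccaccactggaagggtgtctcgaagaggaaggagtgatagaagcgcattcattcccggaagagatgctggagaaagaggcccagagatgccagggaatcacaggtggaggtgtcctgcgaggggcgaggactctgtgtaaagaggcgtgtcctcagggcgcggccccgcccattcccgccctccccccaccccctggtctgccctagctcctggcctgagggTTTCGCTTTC

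The lymphotoxin beta receptor did not pass the test, while its ligand subunit Ltb fell. Ltbr, whose product drives the NIK arm of NF-kB, had 95.9, 90.5 and 94.5 CPM in control against 99.5, 103 and 96.8 CPM under the knockout label. The groups do not overlap but lie close together (log2 fold change 0.09, 95% interval 0.00 to 0.19, adjusted p = 0.0765). Ltbr passed as higher with relative log expression factors (log2 fold change 0.12, adjusted p = 0.0374), in DESeq2 (0.12, adjusted p = 0.0431) and with a filter of 5 CPM in 3 libraries (0.11, adjusted p = 0.0436). It also passed without control replicate 1 (0.16, adjusted p = 0.0196), without control replicate 3 (0.15, adjusted p = 0.0288) or without EphA4 knockout replicate 3 (0.17, adjusted p = 0.0106). Ltb, which encodes the membrane subunit of the lymphotoxin heterotrimer, had 107, 36 and 70 counts in control against 3, 0 and 3 counts under the knockout label. Control replicate 2 is the lowest of its group but lies above every knockout-labelled library, and Ltb fell by 5.00 on the log2 scale (SE 0.76, adjusted p = 0.000318, edgeR). Tnfsf14, the other ligand of this receptor, had 0 counts in all 6 libraries, and its second receptor Tnfrsf14 had 7, 0 and 1 counts in control against 0 under the knockout label. The Ltb promoter (chr17:35194257-35194506, plus strand, GRCm38.p6) is printed because it holds a match to the kappaB consensus, the motif of NF-kB, in capitals.
Ltb: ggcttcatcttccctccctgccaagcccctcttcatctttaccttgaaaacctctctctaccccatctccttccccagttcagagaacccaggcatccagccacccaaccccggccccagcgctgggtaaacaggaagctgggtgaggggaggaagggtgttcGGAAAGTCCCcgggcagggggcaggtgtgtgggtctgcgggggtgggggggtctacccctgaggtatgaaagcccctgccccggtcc

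Of the death receptors described here and not above, Fas, Ngfr and Tnfrsf10b fell, as Tnfrsf1a did, Tnfrsf21 rose, and Tnfrsf25 lay below the filter. Fas, the receptor of Fas ligand, had 3.59, 3.06 and 3.84 CPM in control against 0.140, 0.108 and 0.218 CPM under the knockout label, or 133, 108 and 160 counts against 5, 4 and 8. It fell by 4.46 on the log2 scale (SE 0.36, adjusted p = 5.21e-06, edgeR), and no library of either group comes near the other group. Ngfr, the p75 neurotrophin receptor, fell by a like amount, from 5.40, 5.41 and 6.07 CPM to 0.280, 0.190 and 0.299 CPM (log2 fold change -4.44, SE 0.29, adjusted p = 1.22e-06). Tnfrsf21, also called death receptor 6, went the other way. It had 30.2, 29.8 and 28.2 CPM in control against 64.9, 63.9 and 62.2 CPM under the knockout label, a rise of 1.12 on the log2 scale (SE 0.05, adjusted p = 1.77e-07). The promoters of Fas (chr19:34290409-34290658, plus strand) and Tnfrsf21 (chr17:43016305-43016554, plus strand), both GRCm38.p6, are set side by side because these death receptors moved in opposite directions. Capitals in Fas mark TGANTCA, the AP-1 site, and Tnfrsf21 held none of the motifs searched in this window. The windows of Ngfr and Tnfrsf1a, which fell, held none either. With a match in Fas alone among these receptors, a relation of matches to direction was not tested. The bases that follow this start of Fas were not found in its GENCODE M21 transcripts.
Fas: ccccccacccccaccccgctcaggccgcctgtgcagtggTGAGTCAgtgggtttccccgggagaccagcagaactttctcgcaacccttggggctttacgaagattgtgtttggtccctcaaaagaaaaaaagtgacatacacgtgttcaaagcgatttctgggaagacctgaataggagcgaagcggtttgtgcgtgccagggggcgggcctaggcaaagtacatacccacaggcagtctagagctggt
Tnfrsf21: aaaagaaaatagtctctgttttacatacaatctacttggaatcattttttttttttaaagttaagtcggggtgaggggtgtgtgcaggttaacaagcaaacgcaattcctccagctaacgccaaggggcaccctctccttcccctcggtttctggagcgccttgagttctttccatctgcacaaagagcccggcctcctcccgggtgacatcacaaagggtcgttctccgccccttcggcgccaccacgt

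Tnfrsf10b, the signalling receptor of TRAIL in mice, had 43.9, 43.4 and 44.6 CPM in control against 38.7, 38.5 and 36.4 CPM under the knockout label. The groups do not overlap, and Tnfrsf10b fell by 0.21 on the log2 scale (SE 0.05, adjusted p = 0.00505, edgeR). This call was lost without EphA4 knockout replicate 3 (log2 fold change -0.13, adjusted p = 0.101). Tnfsf10, which encodes TRAIL, had 8, 13 and 14 counts in control and 0 in every knockout-labelled library. That is at least 11.3-fold lower with 3 counts summed over the knockout-labelled group as its floor and the control counts taken as they stand. Fasl was near zero, with 2, 2 and 8 counts in control against 2, 0 and 2 under the knockout label. Tnfrsf25, death receptor 3, had 10, 4 and 22 counts in control against 0 under the knockout label (at least 11.6-fold lower on the same terms). Tnfsf15, the ligand of Tnfrsf25 and a costimulator of T cells, rose: it had 0.243, 0.198 and 0.312 CPM in control against 1.65, 1.90 and 1.66 CPM under the knockout label (log2 fold change 2.77, SE 0.35, adjusted p = 0.000106). Its level remained low in both groups, 9, 7 and 13 counts against 59, 70 and 61.

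Of the 3 neighbouring receptor genes on chromosome 7, the TRAIL decoys Tnfrsf22 and Tnfrsf23 rose and Tnfrsf26 did not pass. Tnfrsf22 had 37.1, 36.5 and 34.1 CPM in control against 62.1, 56.2 and 50.4 CPM under the knockout label (log2 fold change 0.65, SE 0.08, adjusted p = 7.96e-05, edgeR). Tnfrsf23 had 50, 53.0 and 51.8 CPM in control against 65.7, 67.8 and 66.8 CPM under the knockout label (log2 fold change 0.37, SE 0.05, adjusted p = 7.23e-05). Tnfrsf22 varied more among the knockout-labelled libraries than Tnfrsf23, and neither gene's groups overlap. Tnfrsf26, the next gene of the cluster, had 0.593, 0.510 and 0.216 CPM in control against 0.559, 0.434 and 0.980 CPM under the knockout label, with overlapping groups (log2 fold change 0.58, 95% interval -0.62 to 1.79, adjusted p = 0.344).

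Reads of Tnfrsf22 and Tnfrsf23 can be hard to assign to 1 gene. Of the 50-base windows in the longest transcript of Tnfrsf22, 17.6% occur in Tnfrsf23 transcripts, and 21.8% of those of Tnfrsf23 occur in Tnfrsf22 transcripts (GENCODE M21). Their longest annotated coding sequences are 594 and 528 bases and matched at 479 of 528 aligned bases (90.7%). The most alike stretch of 150 coding bases is shown, bases 384 to 533 of Tnfrsf22 and 354 to 503 of Tnfrsf23 counted from the first coding base, with the 3 differing bases in capitals. How the counting treated such reads is not given in the sources used here, so the separate values of the pair are uncertain.
Tnfrsf22: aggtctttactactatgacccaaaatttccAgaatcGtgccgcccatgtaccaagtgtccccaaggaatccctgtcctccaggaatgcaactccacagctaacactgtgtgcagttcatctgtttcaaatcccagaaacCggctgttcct
Tnfrsf23: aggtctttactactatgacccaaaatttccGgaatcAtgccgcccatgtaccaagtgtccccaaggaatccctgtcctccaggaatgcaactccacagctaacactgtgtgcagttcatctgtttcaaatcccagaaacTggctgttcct

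Tnfrsf12a, the receptor of TWEAK and known as Fn14, was the most abundant member in every library. It had 215, 204 and 216 CPM in control against 298, 281 and 280 CPM under the knockout label, a rise of 0.44 on the log2 scale (SE 0.04, adjusted p = 1.07e-05, edgeR) with no overlap. Its counts made up 34.1%, 33.5% and 34.9% of the summed counts of the 26 receptors in control against 43.5%, 42.2% and 43.0% under the knockout label. Tnfsf12, which encodes TWEAK, had 14, 0 and 7 counts in control against 1, 0 and 3 under the knockout label. Its exons share 48.3% of their bases with Tnfsfm13, a read-through gene that joins Tnfsf12 and Tnfsf13, so even these counts are uncertain.

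**Figure D2:**
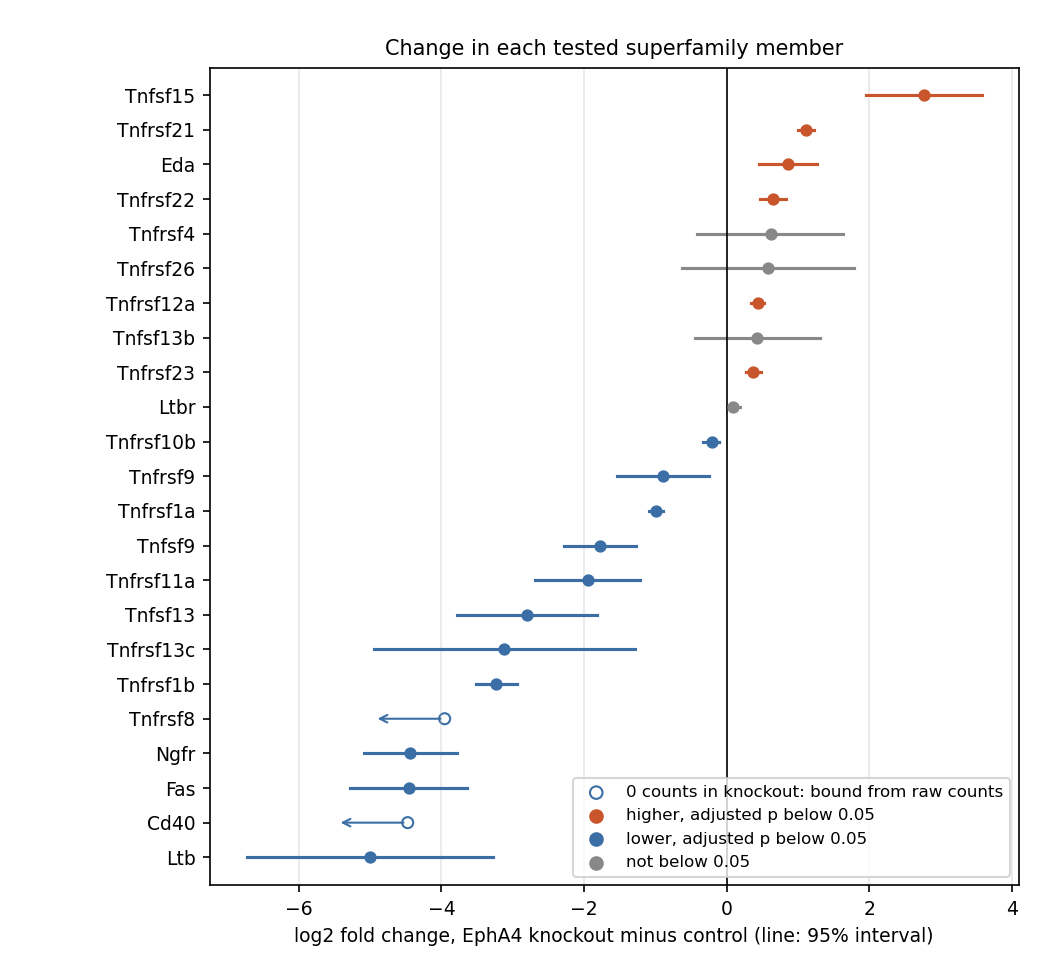
Log2 fold change of each tested superfamily member, knockout-labelled minus control, with its 95% interval from edgeR, coloured by call. Open circles with arrows are Cd40 and Tnfrsf8, which had 0 counts in the knockout-labelled libraries and are drawn at the bound from raw counts, and the 6 members that rose and 13 that fell reach from Tnfsf15 (2.77) to Ltb (-5.00) among those drawn at their fitted value.

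Tnfsf9, the ligand 4-1BBL that stimulates T and NK cells, was the most abundant ligand per kilobase, with 16.3, 10.5 and 13.1 CPM in control against 4.03, 4.61 and 2.99 CPM under the knockout label. It fell by 1.78 on the log2 scale (SE 0.22, adjusted p = 8.55e-05, edgeR), with no overlap, and 14.9% of its exon bases lie under a gene model on the other strand. Its receptor Tnfrsf9 had 3.80, 3.17 and 3.31 CPM in control against 1.90, 1.30 and 2.34 CPM under the knockout label, and fell by 0.89 on the log2 scale (SE 0.28, adjusted p = 0.0186). That call was lost without control replicate 1 (adjusted p = 0.0832), control replicate 3 (adjusted p = 0.0623) or EphA4 knockout replicate 2 (log2 fold change -0.66, adjusted p = 0.0598). Tnfrsf4, or OX40, had 1.24, 1.13 and 0.744 CPM in control against 0.783, 1.54 and 2.45 CPM under the knockout label. Its groups overlap, and EphA4 knockout replicate 3 is the highest library (log2 fold change 0.62, 95% interval -0.41 to 1.64, adjusted p = 0.242, or 0.23 on the log2 scale without that library).

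Cd40 and Tnfrsf8 were found in the control libraries only. Cd40, a receptor through which T cells activate antigen-presenting cells, had 30, 22 and 17 counts in control and 0 under the knockout label, lower by at least 22.2-fold (same floor as for Tnfsf10, adjusted p = 0.000739, edgeR). Tnfrsf8, or CD30, had 10, 14 and 24 counts in control and 0 under the knockout label, lower by at least 15.5-fold (adjusted p = 0.00219). Both are low transcripts even in control, at 0.613 ± 0.201 and 0.414 ± 0.154 CPM (SD, n = 3). The promoters of Tnfrsf8 and of the downstream start of Tnfrsf9 are shown because each held both a kappaB match and an AP-1 site, in capitals (chr4:145315165-145315414, minus strand, and chr4:150927749-150927998, plus strand, GRCm38.p6).
Tnfrsf8: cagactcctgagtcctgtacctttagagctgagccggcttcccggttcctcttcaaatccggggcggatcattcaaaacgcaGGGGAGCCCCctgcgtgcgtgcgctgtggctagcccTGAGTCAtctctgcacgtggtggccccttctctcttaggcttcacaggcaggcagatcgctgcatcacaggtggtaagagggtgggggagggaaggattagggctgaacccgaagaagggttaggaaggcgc
Tnfrsf9: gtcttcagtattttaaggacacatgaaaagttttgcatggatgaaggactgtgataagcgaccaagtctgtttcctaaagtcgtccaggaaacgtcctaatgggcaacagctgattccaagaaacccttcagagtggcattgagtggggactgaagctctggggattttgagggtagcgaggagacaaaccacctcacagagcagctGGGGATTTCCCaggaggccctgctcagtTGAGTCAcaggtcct

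Promoters in RefSeq's table were matched for 34 of the 43 members, 38 starts in all, and both strands of the 250 bases before each start were searched, overlapping matches included. The kappaB consensus was found at 3 of 38 starts (7.89%), of Ltb, Tnfrsf8 and Tnfrsf9, against 3.9% of all 32851 promoters. TGANTCA was found at 6 of 38 (15.8%), of Fas, Tnfrsf8, Tnfrsf9, Tnfsf13, Tnfsf13b and Tnfsf14, against 6.75% of all. The interferon response core was found at 4 of 38 (10.5%), of Tnfrsf14, Tnfrsf17, Tnfrsf1b and Tnfsf13b, against 2.98%. Of the members with a kappaB or AP-1 match, Ltb, Tnfrsf8, Tnfrsf9, Fas and Tnfsf13 fell, as did 13 of the 23 tested members in all, Tnfsf13b did not pass, and Tnfsf14 had 0 counts. A match is a stretch of letters, not a binding site.

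Tnfsf13, the ligand APRIL, had 0.890, 1.19 and 1.03 CPM in control against 0.168, 0.108 and 0.163 CPM under the knockout label, and fell by 2.80 on the log2 scale (SE 0.43, adjusted p = 0.000342, edgeR), although 60% of its exon bases lie under other gene models. Tnfsf13b, the ligand BAFF, had 0.486, 0.736 and 0.960 CPM in control against 0.783, 1.06 and 1.12 CPM under the knockout label, with overlapping groups (log2 fold change 0.43, 95% interval -0.44 to 1.31, adjusted p = 0.331). Tnfrsf13c, the BAFF receptor, had 46, 17 and 40 counts in control against 0, 5 and 6 under the knockout label, and fell by 3.12 on the log2 scale (SE 0.80, adjusted p = 0.00693). The plasma cell and B cell receptors Tnfrsf17 and Tnfrsf13b had 0 counts in every library. Tnfrsf11a, or RANK, had 4.88, 3.23 and 3.79 CPM in control against 1.43, 0.786 and 0.871 CPM under the knockout label, and fell by 1.95 on the log2 scale (SE 0.32, adjusted p = 0.000546) with no overlap. Its ligand Tnfsf11 had 0, 4 and 5 counts in control, and the decoy Tnfrsf11b, osteoprotegerin, had 10, 0 and 5, while both had 0 in all knockout-labelled libraries.

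The ectodysplasin ligand was detected and its receptors were near zero. Eda, which shapes hair and glands through EDAR, had 5.61, 4.98 and 5.97 CPM in control against 12.2, 9.68 and 8.22 CPM under the knockout label. It rose by 0.86 on the log2 scale (SE 0.18, adjusted p = 0.00227, edgeR), with no overlap and EphA4 knockout replicate 3 the lowest of its group, and by 1.04 without that library. Edar had 1 count in 1 knockout-labelled library and 0 in the other 5, and Eda2r had 0 in all 6. Tnfrsf19, or TROY, a receptor related to EDAR, had 0, 0 and 1 counts in control against 14, 15 and 2 under the knockout label. The ratio was 32.1 with a 95% counting interval of 5.35 to 1310, EphA4 knockout replicate 3 lies far below the other libraries of its group, and the gene stayed below the filter.

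**Figure D3:**
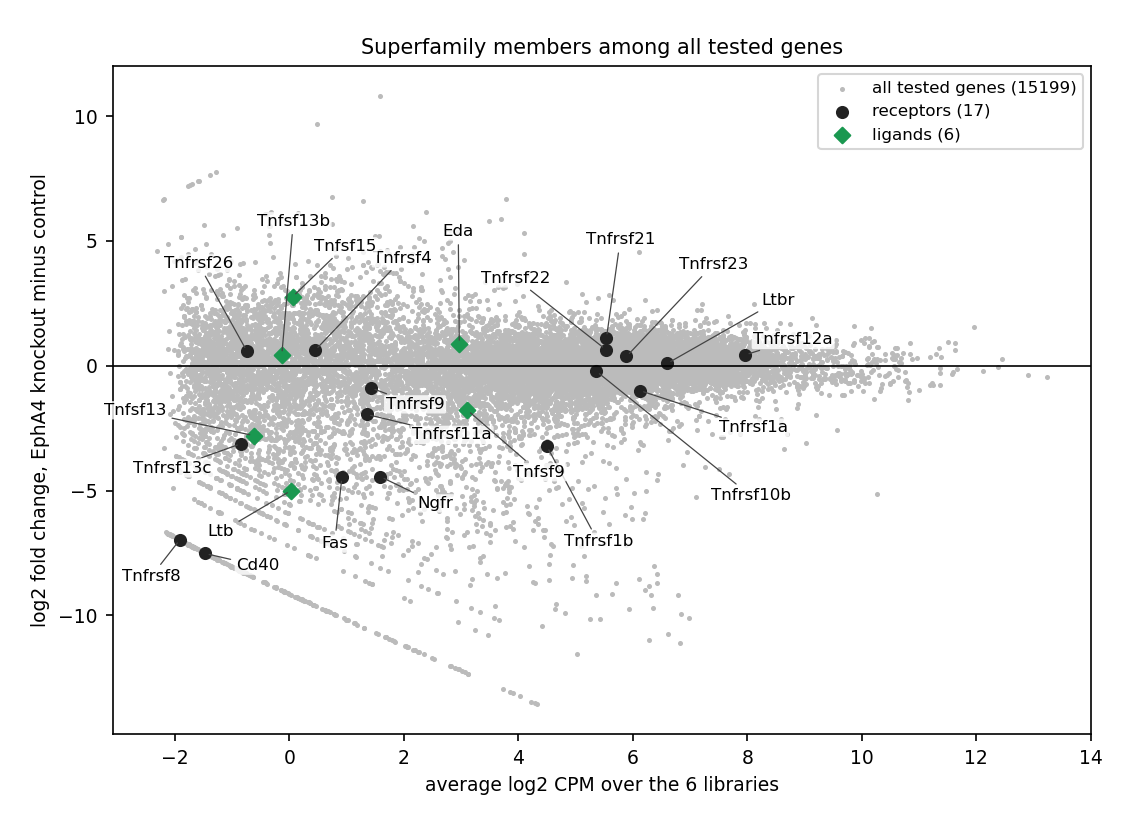
Log2 fold change against average log2 CPM for all 15199 tested genes (grey), with the 17 tested receptors (black circles) and 6 tested ligands (green diamonds) named. The receptors above an average log2 CPM of 5 lie between Tnfrsf1a (-0.99) and Tnfrsf21 (1.12), the members with falls of larger size all lie below it, and the fitted values of genes with 0 counts in 1 group, such as Cd40 and Tnfrsf8, depend on the prior count and form the slanted lines.

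The remaining 20 members, 11 ligands and 9 receptors, lay below the filter and are near zero, with at most 22 counts in any library. Of these, 5 had 0 counts in all 6 libraries: Eda2r, Tnfrsf13b, Tnfrsf17, Tnfsf14 and Tnfsf8. A count of 0 does not show absence, since 0 counts over a group allow up to 3 counts summed over its libraries. Members seen in control but with 0 counts over the knockout-labelled libraries numbered 9 of the 34 with more than 3 control counts (Cd40, Tnfrsf8, Tnfrsf11b, Tnfrsf14, Tnfrsf18, Tnfrsf25, Tnfsf10, Tnfsf11 and Tnfsf18), against 8.66% of all genes with such control counts. These 9 had from 6 (Tnfsf18) to 69 (Cd40) counts summed over control, while the 8.66% covers genes of every higher level too. The shares are therefore not matched on level and do not single out the family. Tnfrsf18, or GITR, had 4, 2 and 5 counts in control, 3.54-fold above the floor of 3 counts, and its ligand Tnfsf18 had 1, 0 and 5. Without the filter Tnfrsf18 did not pass (adjusted p = 0.0956, edgeR). Cd70 had 0, 2 and 1 counts and Tnfsf4, the OX40 ligand, 2, 1 and 0 counts in control, with 0 in the knockout-labelled libraries, too few for a fold. Without the filter, 3 of the 15 of these members with any count passed in edgeR, against 8.04% of all genes below the filter and 40% of all genes with a count: Tnfrsf19 as higher (adjusted p = 0.0217), and Tnfrsf25 and Tnfsf10 as lower (adjusted p = 0.00479 and 0.00359).

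**Figure D4:**
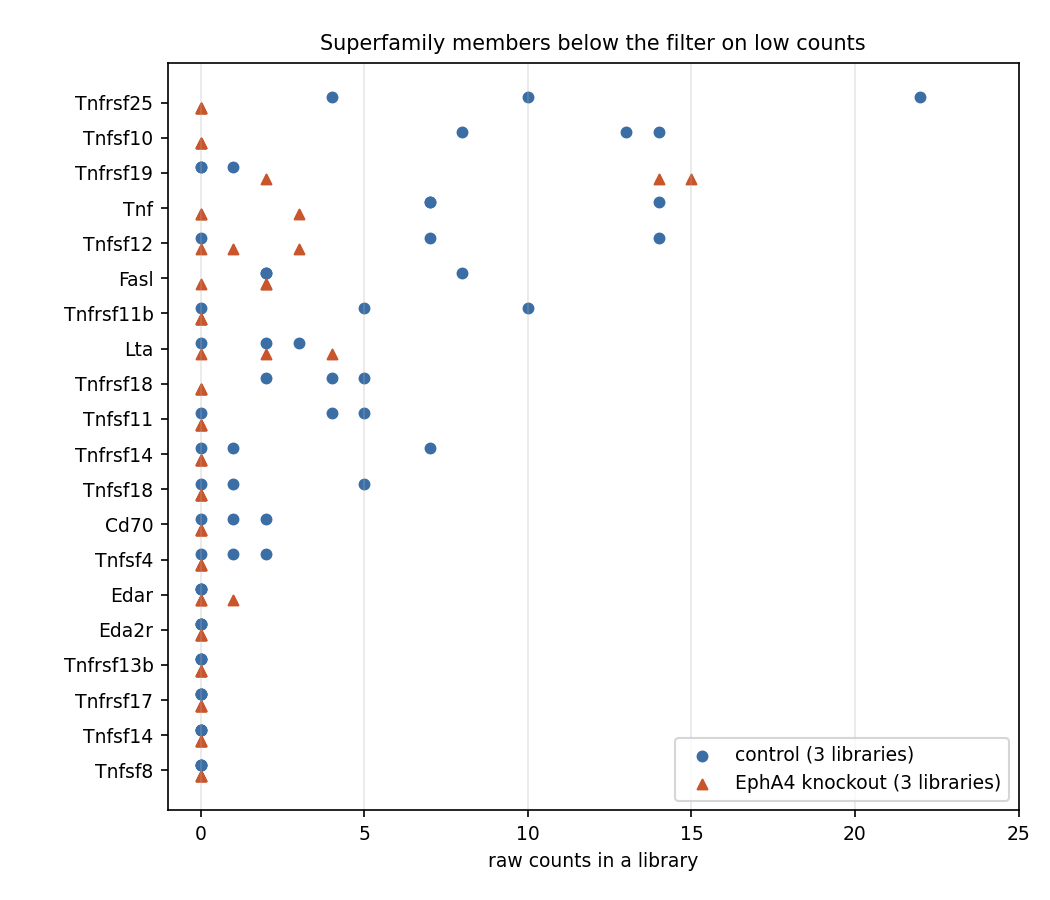
Raw counts in each library for the 20 members below the filter, circles for the 3 control and triangles for the 3 knockout-labelled libraries. The highest value is 22 counts, for Tnfrsf25 in control, and Tnfrsf19 is the member with 14 and 15 counts in 2 knockout-labelled libraries.

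In RefSeq's order of protein-coding genes on GRCm38.p6, 12 pairs of members have no other protein-coding gene between them. In 3 of these pairs both members were tested. Tnfrsf1b and Tnfrsf8 on chromosome 4 both fell, Tnfrsf22 and Tnfrsf23 on chromosome 7 both rose, and Tnfrsf26, which did not pass, lies beside Tnfrsf22. Tnfsf15, which rose, lies beside Tnfsf8, which had 0 counts in every library. Ltb, Tnf and Lta lie in a row on chromosome 17, and only Ltb was above the filter. Ltbr and Tnfrsf1a on chromosome 6, with 1 gene between them, had log2 fold changes of 0.09 and -0.99.

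The genes that carry the signal from these receptors went both ways, mostly by less than a log2 unit. Of 50 listed symbols of adaptors, kinases, caspases, ubiquitin ligases, sheddases and related receptors, 49 were among the deposited symbols and 45 were tested. Of the 45, 16 rose, 22 fell and 7 did not pass (84.4% called, against 71.5% of all tested genes), with a median log2 fold change of -0.07. All 45 also met a filter of 5 CPM in 3 libraries. With that filter 17 of them rose and 22 fell, beside 4298 and 4383 of all 10519 genes then tested. Of all genes with a mean of at least 5 CPM, an unlike limit that Traf5 does not meet, 80.3% passed, close to the share of the list. The largest changes were falls of the TRAF adaptors Traf5 and Traf1. Traf5, an adaptor of several costimulatory receptors, had 5.85, 5.78 and 5.95 CPM in control against 0.895, 0.813 and 0.817 CPM under the knockout label (log2 fold change -2.80, SE 0.21, adjusted p = 3.77e-06, edgeR). Traf1, itself an NF-kB target, had 25.2, 32.2 and 28.7 CPM in control against 8.36, 7.05 and 6.26 CPM under the knockout label (log2 fold change -1.99, SE 0.13, adjusted p = 1.63e-06). Rnf31, the catalytic subunit of the linear ubiquitin complex, fell from 56.9, 53.2 and 54.8 CPM to 21.6, 19.9 and 21.8 CPM (log2 fold change -1.38, SE 0.06). Tab3, a partner of the kinase TAK1, rose from 23.9, 26.6 and 21.4 CPM to 51.7, 51.4 and 47.6 CPM (log2 fold change 1.07, SE 0.08). These 4 were the listed genes past a log2 fold change of 1 in size, 1 higher and 3 lower. The other TRAF adaptors were split: Traf3 and Traf6 rose (log2 fold changes 0.98 and 0.62), Traf4 fell (-0.35), and Traf2 and Traf7 did not pass.

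At the receptor complexes themselves, Fadd and Ripk1 rose (log2 fold changes 0.69 and 0.79) and Tradd, Casp8 and Cflar fell (-0.60, -0.49 and -0.90). Fadd, the adaptor that brings caspase 8 to death receptors, had 9.39, 10.1 and 8.78 CPM in control against 15.7, 14.5 and 15.5 CPM under the knockout label. Cflar, which encodes the caspase 8 inhibitor FLIP, had 106, 103 and 102 CPM in control against 57.2, 56.1 and 52.4 CPM under the knockout label. For these 5 genes no control value lies within the range of the knockout-labelled libraries. Traf2, the adaptor shared by most receptors of the family, had 38.3, 40.1 and 36.9 CPM in control against 41.6, 40.7 and 37.3 CPM under the knockout label, with overlapping groups (log2 fold change 0.05, 95% interval -0.09 to 0.19, adjusted p = 0.475). Relt and Cd27 are receptors of the superfamily whose symbols fall outside the rule. Relt had a log2 fold change of 0.49 (95% interval 0.03 to 0.96, adjusted p = 0.0553), and Cd27 was near zero, as were Ripk3, Birc3 and Edaradd, the adaptor of EDAR.

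**Figure D5:**
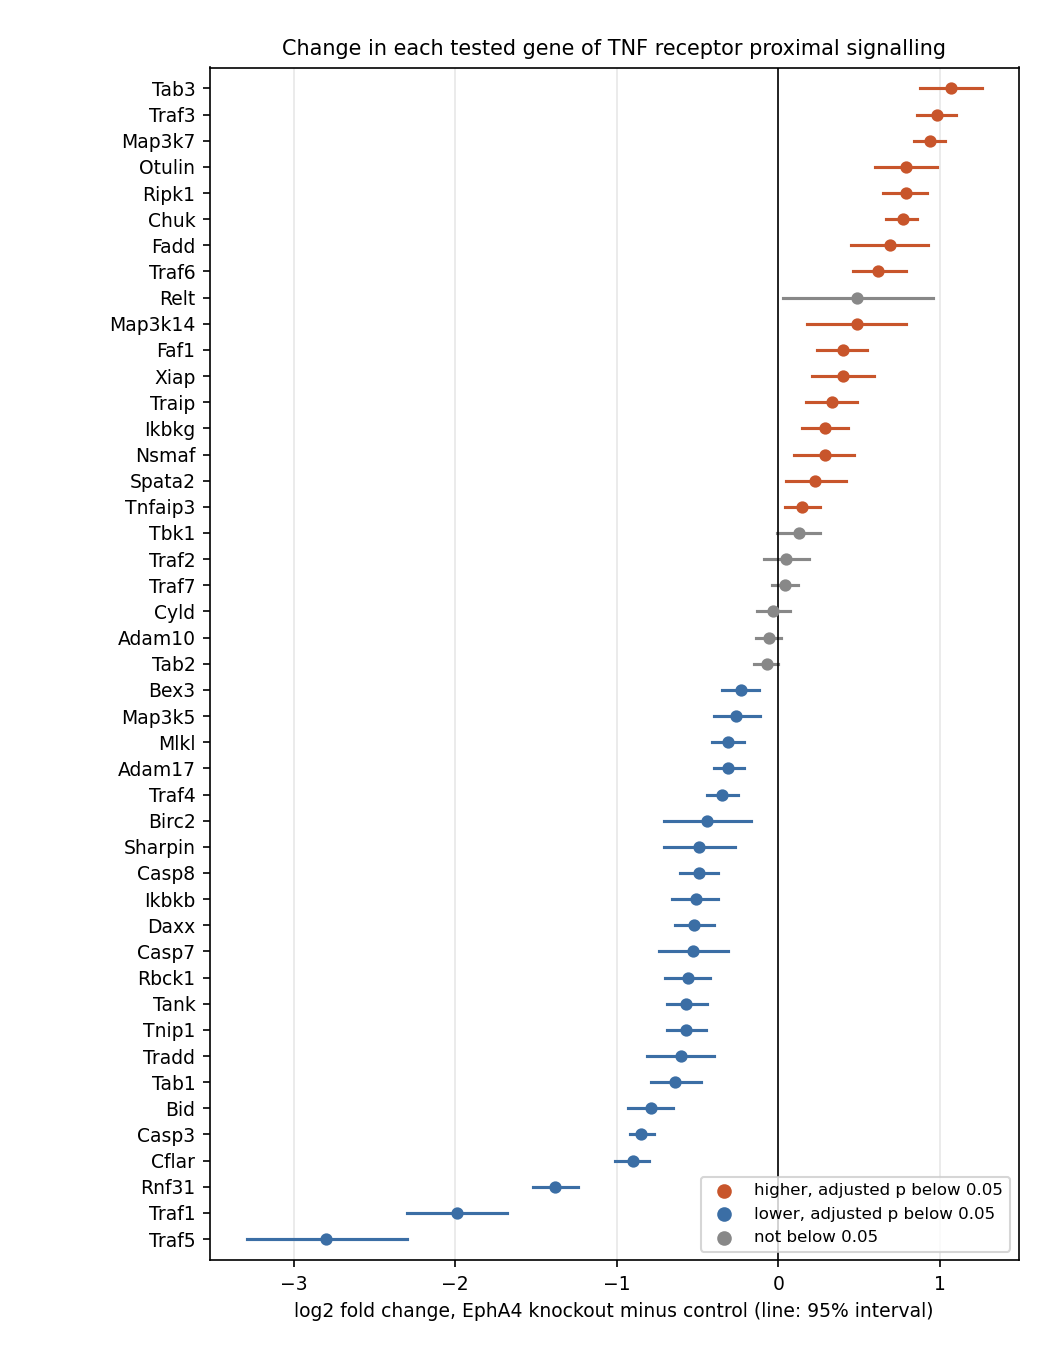
Log2 fold change, knockout-labelled minus control, with its 95% interval from edgeR, for the 45 tested genes of TNF receptor proximal signalling, coloured by call. The values run from Traf5 (-2.80) to Tab3 (1.07), and 16 genes are higher, 22 lower and 7 not called.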

How the data were processed

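RNA was measured as polyA-selected RNA-seq of 6 libraries. Raw, unnormalized counts by gene symbol were deposited by the authors as 1 table. The submitters' processing notes name STAR and GRCm39 without versions. Which tool, annotation and strand setting produced the counts is not given in the sources used here, so reads of overlapping and near-identical genes cannot be assigned with certainty. The set of symbols is that of GENCODE M21, from which exon lengths, overlaps and transcripts were taken. Columns were matched to samples by library name. The members and lists were chosen with earlier results of these data known.

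Genes were filtered with filterByExpr (minimum count 10, 15199 of 28042 genes with any count kept), scaled by TMM and tested with edgeR 4.0.16 in R 4.3.3 (quasi-likelihood test, two-sided, no covariate beside group), with Benjamini-Hochberg adjustment over all tested genes and calls at 0.05. SEs were derived from the log2 fold change and its F statistic. CPM values are TMM-scaled, while marker sums, floors and count ratios use library totals. A fold against a group at 0 counts is a bound against 3 counts over the group, and other count ratios of members below the filter carry exact (Clopper-Pearson) 95% intervals. Floors allow for counting error in the group at 0 counts alone and take the counts of the other group as they stand. Intervals cover counting error only. Every member is named. Of the signalling list, called genes with a log2 fold change of at least 1 in size are named, with Tradd, Fadd, Ripk1, Traf2, Casp8 and Cflar. Relt, Cd27, Ripk3, Birc3, Edaradd and the other TRAF adaptors were named after their values were seen.

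Alternatives were relative log expression factors, library size alone, no filter, at least 5 CPM in 3 libraries, limma-voom (limma 3.58.1), DESeq2 1.42.0, glmTreat against a fold of 1.5, a replicate block, and each library left out. The fit was tested on simulated data, in which 50 genes were changed at each of 4 folds. It recovered 28 of 50 genes at a fold of 1.5 and 29 at a fold of 2. At folds of 4 and 32 it recovered 38 and 49, and 7.1% of its calls were false. Far fewer genes were changed there than were called in these data. Promoters are RefSeq's (GRCm38.p6), and figures were drawn with matplotlib 3.10.9.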

Additional observations from a re-analysis of the deposited data

How the results depend on the processing

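Of the 310 log2 fold changes computed for the 23 tested members under the 14 other settings, 294 kept their direction and side of the threshold, 10 lost the call, 6 gained it and 0 reversed. The gains were all of Ltbr and the losses were of Eda, Tnfrsf9, Tnfrsf10b, Tnfrsf12a, Tnfrsf22 and Tnfrsf23. Against a fold of at least 1.5 (glmTreat), 2 members were higher, down from 6, and 2006 and 3467 genes over the whole table were higher and lower, down from 4963 and 5904. The signalling list then had 6 higher and 6 lower, because few of its changes exceed that fold. With at least 5 CPM in 3 libraries, 11 members were tested and 5 were lower, and their median log2 fold change was 0.11 rather than -0.89. Leaving out each library gave 6 to 8 members higher and 12 to 15 lower. With relative log expression factors, or library size alone, the median of all genes moved from -0.04 to -0.01 and -0.05, and no member changed direction. Same-numbered samples of the groups did not deviate together (correlations -0.003, 0.029 and 0.008 over 15199 genes), and not every sample correlated best with its own number. These values show no pairing by number but cannot exclude it, and the labels do not state one. The replicate block gave 6 members higher and 13 lower, the signalling list 16 and 22. Depth limits the 20 members below the filter, where 1 count is 0.0239 to 0.0285 CPM before scaling.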
